A study of Mus musculus with 12 samples.

Results

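The imprinted Dlk1-Dio3 region of mouse chromosome 12 holds a large cluster of miRNAs, and 60 mature miRNAs of this cluster were looked up by their exact names on the arrays. Of these, 59 were found and mmu-miR-299a-5p was not, so that 59 of the 1881 mouse miRNAs on the arrays are described here. They were measured in microglial exosomes of adult male C57BL/6 mice, on 12 single-color Agilent miRNA arrays in 4 groups of 3. The injured mice received 4 closed-head impacts at intervals of 48 h, a model of repetitive mild traumatic brain injury (rmTBI), and exosomes were taken at 3, 14, or 42 days post-injury (DPI). Sham mice went through the same handling without the impact, and their time of collection is not given in the labels. Exosomes are small membrane vesicles released by cells. Here they were isolated from digested cerebral tissue and then pulled down with an antibody against CD11b, a surface protein of microglia and other myeloid cells. The labels call the tissue the injured hemisphere and the methods call it cortex and hippocampus of both sides, and while the methods speak of independent experiments for all data, neither says outright whether the 3 arrays of a group come from separate mice, so the p-values measure the spread between these arrays.

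Genes of the Dlk1-Dio3 region are expressed from only 1 of the parental chromosomes. Dlk1, Rtl1, and Dio3, which code for proteins, are read from the paternal copy, while the long noncoding RNAs Meg3, Rian, and Mirg and the miRNAs are read from the maternal copy. Several of the miRNAs lie opposite Rtl1 and match its transcript in full, which leads to its cleavage. In adult mice the cluster is known for its expression in brain, and some members, miR-134 among them, are known for regulating dendrites and synapses in neurons.

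By RefSeq on GRCm38.p6, the hairpins of the 59 miRNAs run over 180 kb, chr12:109563692-109743795 on the plus strand. An upstream part of 14 hairpins, miR-770 to miR-370 (chr12:109563692-109618336), gives 18 of the miRNAs and includes those opposite Rtl1. A downstream part of 34 hairpins, miR-379 to miR-410 (chr12:109709060-109743795), gives 41. RefSeq held the mature sequence of 56 of the 59. The sequences below are those of the miRNAs that passed the test described further on, and of miR-770-3p, which lies at the upstream end. They are written 5′ to 3′, with the seed (bases 2 to 8, which pair with target mRNAs) in capitals. Upstream miRNAs stand first.
mmu-miR-770-3p: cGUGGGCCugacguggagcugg (chr12:109563744-109563765)
mmu-miR-433-3p: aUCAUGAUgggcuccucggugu (chr12:109591781-109591802)
mmu-miR-127-3p: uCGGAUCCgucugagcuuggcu (chr12:109592888-109592909)
mmu-miR-434-3p: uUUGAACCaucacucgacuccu (chr12:109594565-109594586)
mmu-miR-136-5p: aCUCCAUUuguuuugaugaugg (chr12:109595331-109595352)
mmu-miR-136-3p: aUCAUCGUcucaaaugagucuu (chr12:109595366-109595387)
mmu-miR-379-3p: uAUGUAACaugguccacuaacu (chr12:109709102-109709123)
mmu-miR-411-3p: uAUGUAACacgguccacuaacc (chr12:109710225-109710246)
mmu-miR-380-3p: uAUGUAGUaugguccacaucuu (chr12:109711842-109711863)
mmu-miR-329-3p: aACACACCcagcuaaccuuuuu (chr12:109713541-109713562)
mmu-miR-494-3p: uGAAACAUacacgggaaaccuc (chr12:109715367-109715388)
mmu-miR-543-3p: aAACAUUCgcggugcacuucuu (chr12:109717304-109717325)
mmu-miR-376b-3p: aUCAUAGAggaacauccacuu (chr12:109723508-109723528)
mmu-miR-376a-3p: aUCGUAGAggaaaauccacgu (chr12:109723824-109723844)
mmu-miR-382-3p: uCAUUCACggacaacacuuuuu (chr12:109733819-109733840)
mmu-miR-154-5p: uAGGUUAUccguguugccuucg (chr12:109738438-109738459)
mmu-miR-154-3p: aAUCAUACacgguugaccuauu (chr12:109738474-109738495)
mmu-miR-541-5p: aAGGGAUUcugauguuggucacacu (chr12:109742422-109742446)

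The seed of miR-379-3p, AUGUAAC, is also that of miR-411-3p, and these were the only members with sequence that shared a seed. Their mature sequences differ by 2 edits over 22 bases, where an edit is a changed, added, or missing base. miR-376a-3p and miR-376b-3p differ by 3 edits over 21 bases, and miR-300-3p and miR-381-3p by 3 over 22. The pair of miR-154-3p and miR-369-3p and that of miR-495-3p and miR-543-3p differ by 4, and miR-379-3p and miR-380-3p by 5. Signal of such pairs may be shared between them on an array, and this was not tested.

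All values below are on 1 scale. The signal of a miRNA was divided by the 75th percentile of the miRNAs detected on all 12 arrays and put on the log2 scale, so that 0 is that percentile on the same array, and values were floored at -5.42. Detection on an array required that, for 1 probe or more, over 0.5 of the spots lay well above background. The test took in miRNAs that a whole group of arrays detected, and a call means an adjusted p under 0.05 by limma with Benjamini-Hochberg adjustment over the 486 miRNAs tested. Levels are compared for 1 miRNA at a time between groups, never between miRNAs.

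The arrays were not equally bright. Before scaling, the 75th percentile was lowest for sham replicate 2 (an intensity of 217) and highest for 42 DPI replicate 1 (2936), and between 243 and 579 miRNAs were detected per array. Slide 1 held the 3 sham arrays and 3 DPI replicate 1, and slide 2 held the other 8, so slide and group cannot be told apart at 14 or 42 DPI against sham. Of the 5 miRNAs listed as enriched in microglia and myeloid cells, 4 were detected on no sham array, and miR-142a-5p on none of the 12. The summed scaled signal of this list ran up to 0.0629 in sham and from 0.139 to 0.174 at 42 DPI. The 6 miRNAs listed for neurons were detected on all 12 arrays, with sums from 17.1 to 22.8 in sham and from 31.7 to 35.8 at 42 DPI, and 3 of the 6 were called higher at 42 DPI against sham. The 3 miRNAs listed for oligodendrocytes had sums from 1.80 to 2.51 in sham and from 4.12 to 4.43 at 42 DPI, and 2 of them were called higher. Of the 3 listed for erythrocytes, none was detected in sham, miR-144-3p was detected on no array, and the sums ran from 0.0303 to 0.0829 at 42 DPI. Called lower was 1 of them, miR-486a-5p, although 3 arrays of 42 DPI detected it, so this call rests on sham values below background. The part of these cell types, and of the brightness of an array, in the results below was not tested. More exosomes of a cell type and more of a miRNA per exosome cannot be told apart in such samples.

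More Dlk1-Dio3 miRNAs were seen at later times. On the sham arrays 27, 25, and 34 of the 59 were detected, at 3 DPI 37, 39, and 34, at 14 DPI 38, 43, and 44, and at 42 DPI 50, 43, and 45. The sham and 42 DPI arrays did not overlap in this count (28.7 ± 4.73 against 46 ± 3.61, mean ± SD, n = 3 each, p = 0.1 by a two-sided exact permutation test, the smallest p that 3 against 3 arrays allow). Detection also rose over all mouse miRNAs, from 12.9% to 15.2% of the 1881 on the sham arrays to 26.1% to 30.8% at 42 DPI, while the share of the cluster went from 42.4% to 57.6% to between 72.9% and 84.7%. A total of 25 members were detected on all 12 arrays, and 9 on none. The filter left 43 members to test. Of the other 16, miR-127-5p was detected on 3 arrays, miR-539-5p on 2, and miR-299a-3p, miR-369-3p, miR-540-3p, miR-665-3p, and miR-667-3p on 1 each.

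All 43 tested members were detected on each array of 42 DPI, but only 25 of them on each sham array, and 7 were below background on every sham array. The filter thus let in members through the group where they were bright, and counts over the 43 are a description. Counts for the 25 members detected everywhere are therefore given as well.

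At 42 DPI the level of the cluster lay above sham for most members. Of the 43, 37 had a higher mean at 42 DPI and 6 a lower one, and the median log2 change was 0.71 (0.34 to 0.94 between the quartiles), beside a median of -0.09 over all 486 miRNAs. A total of 15 members were called higher and 1, miR-433-3p, was called lower, a call rate of 37.2% where 35.8% of all tested miRNAs were called in either direction. By direction, 34.9% of the members were called higher, beside 14.4% of all tested, and the 1 called lower stands beside 21.4% of all tested. For 34 of the 43, every array of 42 DPI lay above every sham array, which held for 32.5% of all tested miRNAs. Among the 25 members detected on all 12 arrays, 5 (20.0%) were called higher and 1 (4.00%) lower, beside 14.3% and 26.5% of the 230 miRNAs so detected. Their median log2 change was 0.51, beside -0.02 for the 230, and 19 of the 25 lay wholly above sham, beside 89 of the 230. The count of calls rested on single arrays: it was 6 without sham replicate 1, 8 without 42 DPI replicate 1, 9 without 42 DPI replicate 3, and 29 without 14 DPI replicate 1, which belongs to neither group. The calls over all miRNAs moved as well, from 174 to 77, 79, 82, and 254. With slide as a block, 0 members and 0 of all miRNAs were called by limma, and the median was 0.68, beside -0.09 over all miRNAs. This adjustment rests on the 3 DPI group alone, which had 1 array on slide 1 and 2 on slide 2. Normexp background correction turned the median to -0.76, beside -0.86 over all miRNAs, with 37 members called and 7 of these higher. Most of the 486 tested miRNAs were called with normexp as well. With the software's total signal 11 of 16 members called were higher, among 171 calls over all miRNAs.

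**Figure D1:**
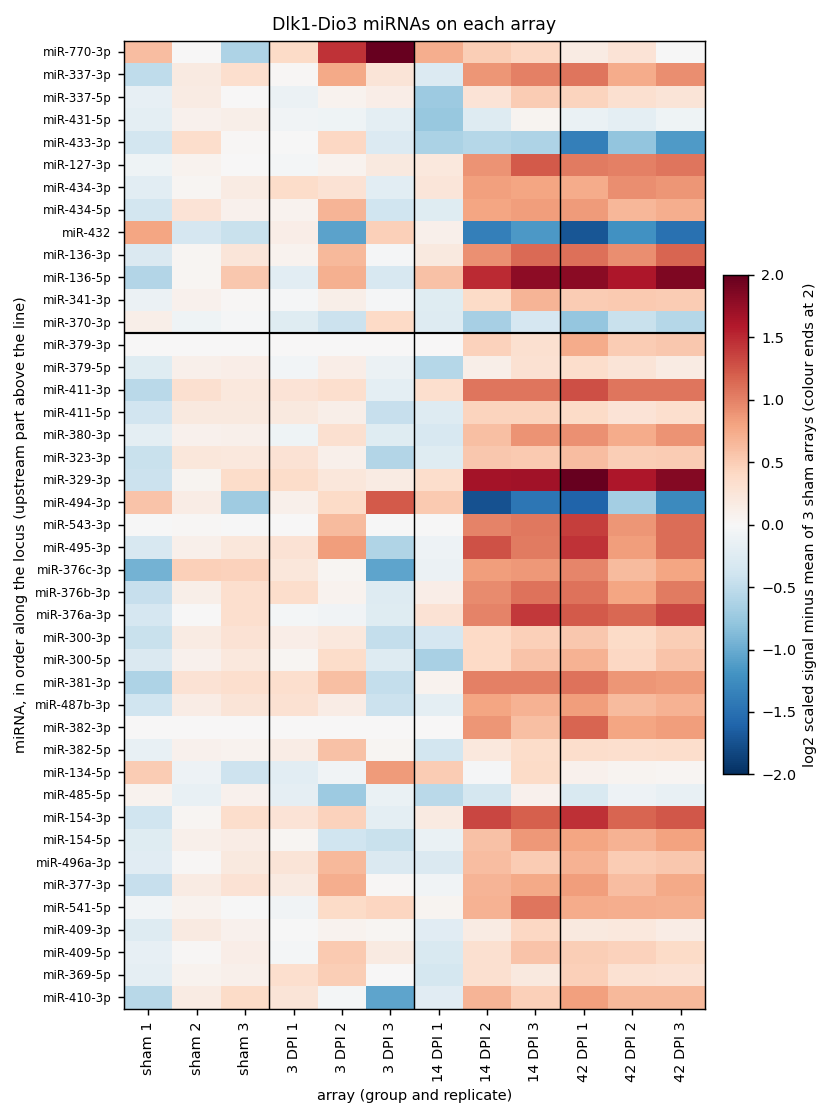
Log2 scaled signal of the 43 tested Dlk1-Dio3 miRNAs on the 12 arrays, each minus the mean of its 3 sham arrays, with miRNAs in order along the locus and the 13 upstream ones above the line. Most miRNAs are red on 14 DPI replicates 2 and 3 and on the 3 arrays of 42 DPI, while miR-433-3p, miR-432, miR-370-3p, and miR-494-3p are blue there.

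The miRNAs opposite Rtl1 moved in both directions. miR-127-3p, one of those that match Rtl1, was at -0.01, 0.15, and 0.08 on the sham arrays, 0.03, 0.14, and 0.27 at 3 DPI, 0.29, 0.97, and 1.29 at 14 DPI, and 1.12, 1.08, and 1.14 at 42 DPI. The 42 DPI arrays lay close together and above every sham array. Its log2 change at 42 DPI was 1.04 ± 0.21 (SE, adjusted p = 0.00964 by limma), a 2.05-fold rise. The other arm, miR-127-5p, was detected on 1 array of 14 DPI and 2 of 42 DPI and was not tested.

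miR-136-5p had the largest change among members detected on all 12 arrays. It was at -2.69, -2.06, and -1.56 in sham, -2.31, -1.40, and -2.42 at 3 DPI, -1.52, -0.61, and -0.31 at 14 DPI, and -0.31, -0.48, and -0.24 at 42 DPI. The 3 DPI arrays overlapped sham, and 14 DPI replicate 1 lay just above the highest sham array. The change at 42 DPI was 1.76 ± 0.40 (SE, adjusted p = 0.0118), a 3.40-fold rise. This call was lost without sham replicate 1, where the change was 1.43. The other arm, miR-136-3p, went from -4.11, -3.77, and -3.56 in sham, where 1 array detected it, to -2.71, -2.89, and -2.64 at 42 DPI, with -3.74, -3.16, and -3.83 at 3 DPI and -3.63, -2.90, and -2.69 at 14 DPI between. Its change was 1.07 ± 0.27 (SE, adjusted p = 0.0168), so both arms of this hairpin were called higher. The change of miR-136-3p rests in part on sham values below background. With the software's total signal in place of the mean of spots it turned to -2.64, and with normexp correction to -0.76.

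miR-434-3p was at 0.13, 0.37, and 0.50 in sham, 0.70, 0.61, and 0.13 at 3 DPI, 0.58, 1.15, and 1.12 at 14 DPI, and 1.08, 1.26, and 1.22 at 42 DPI. The 14 and 42 DPI arrays all lay above sham, and 14 DPI replicate 1 was the nearest to it. The change at 42 DPI was 0.85 ± 0.20 (SE, adjusted p = 0.0124), a 1.80-fold rise, and miR-434-5p, with 0.74 ± 0.34 (SE), did not pass (adjusted p = 0.112).

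miR-433-3p, on the same stretch, fell. It was at -2.19, -1.46, and -1.80 in sham, -1.83, -1.40, and -2.10 at 3 DPI, -2.45, -2.39, and -2.44 at 14 DPI, and -3.18, -2.61, and -2.95 at 42 DPI. All arrays of 14 and 42 DPI lay below all sham arrays. The change at 42 DPI was -1.09 ± 0.23 (SE, adjusted p = 0.0104), to 0.469 of the sham level, and without scaling between arrays it was 1.73, where the median of all miRNAs was 2.02. Its other arm, miR-433-5p, had 0.58 ± 0.29 (SE) and did not pass (adjusted p = 0.136). miR-432 went from -2.60, -3.72, and -3.84 in sham, where 1 array detected it, to -5.10, -4.59, and -4.87 at 42 DPI, where 3 did. The difference was -1.47 ± 0.52 (SE, adjusted p = 0.0547 by limma), and it rests in part on sham values below background. miR-431-5p differed from sham by -0.14. Of the 8 tested members opposite Rtl1, 4 were thus called higher and 1 lower, with a median of 0.80. Of all tested miRNAs, 14.4% were called higher and 21.4% lower. miR-433-5p and miR-431-3p, of the same stretch, were tested but are not among these 8, and neither was called.

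Of the rest of the upstream part, none was called at 42 DPI against sham, where 35.8% of all tested miRNAs were called. miR-370-3p was at -1.31, -1.52, and -1.46 in sham and -2.20, -1.88, and -1.99 at 42 DPI, wholly below sham, with a difference of -0.59 ± 0.21 (SE) and an adjusted p of 0.0505. miR-337-3p, miR-337-5p, and miR-341-3p had 0.91, 0.34, and 0.51. Over the 13 tested upstream miRNAs, 9 had a higher mean at 42 DPI and 4 a lower one, with a median of 0.51.

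In the downstream part, 28 of 30 tested miRNAs had a higher mean at 42 DPI than sham and 11 (36.7%) were called, all of them higher, beside the 14.4% of all tested miRNAs called higher and 35.8% called in either direction, with a median of 0.72. The exceptions in direction were miR-494-3p and miR-485-5p. Whether the parts of the locus differed was not tested.

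miR-376a-3p was at -2.07, -1.72, and -1.40 in sham, -1.76, -1.80, and -1.98 at 3 DPI, -1.44, -0.73, and -0.31 at 14 DPI, and -0.50, -0.58, and -0.40 at 42 DPI. The sham and 3 DPI arrays ran together, and every array of 42 DPI lay above them. Its change at 42 DPI was 1.24 ± 0.27 (SE, adjusted p = 0.0104), a 2.36-fold rise. The other arm, miR-376a-5p, was detected on no sham array, on 2 at 3 DPI, and on all 6 later arrays, and its difference from sham did not pass (adjusted p = 0.0826). The near relative miR-376b-3p, which 1 sham array detected, was called higher too, with 0.97 ± 0.29 (SE, adjusted p = 0.0315 by limma). Its change rests in part on sham values below background. It turned to -0.0581 with the software's total signal and to -0.88 with normexp correction.

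miR-329-3p, of the miR-379 to miR-410 cluster that neuronal activity is known to induce, was below background on every sham array and detected on all others. Its measured values were -5.11, -4.63, and -4.32 in sham, -4.32, -4.46, and -4.51 at 3 DPI, -4.34, -3.03, and -3.01 at 14 DPI, and -2.43, -3.06, and -2.85 at 42 DPI. It was called higher at 42 DPI against sham (adjusted p = 0.00798), and the 42 DPI level exceeded the lowest signal that the sham arrays could tell from background, so that it was at least 2.44-fold higher. At 14 DPI it was at least 1.53-fold higher by the same bound, with an adjusted p of 0.0972. With normexp correction the sign of the fitted change turned, to -0.67. miR-329-5p was detected on no array.

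miR-379-3p and miR-382-3p lay at the floor on all 6 arrays of sham and 3 DPI and on 14 DPI replicate 1, where they were below background. miR-379-3p was then at -4.96 and -5.11 on 14 DPI replicates 2 and 3 and at -4.68, -4.92, and -4.88 at 42 DPI. miR-382-3p was at -4.54 and -4.82, and at -4.26, -4.63, and -4.59. Both passed the filter through 42 DPI alone, and their sham values, all at the floor, had no spread. Their calls at 42 DPI against sham (adjusted p of 0.00798 and 0.0104 by limma) thus depend on the floor. Even at 42 DPI they were dimmer than the lowest signal detected on the sham arrays, so no fold is given. Against 3 DPI, whose arrays reached dimmer signals, the bounds were at least 1.19-fold and at least 1.51-fold higher. Their other arms were detected on all 12 arrays and did not pass, with 0.25 ± 0.21 (SE, adjusted p = 0.362) for miR-379-5p and 0.35 ± 0.20 (SE, adjusted p = 0.185) for miR-382-5p.

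miR-543-3p had the same limit. It was below background in sham (-5.42, -5.38, and -5.42), detected on 1 array at 3 DPI (-5.40, -4.78, and -5.42) and on 2 at 14 DPI (-5.42, -4.42, and -4.36), and stood at -4.02, -4.52, and -4.29 at 42 DPI (adjusted p = 0.0179, no fold). miR-543-5p was detected on no array.

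miR-411-3p, which shares the AUGUAAC seed with miR-379-3p, was at -4.78, -3.92, and -4.03 in sham, where 1 array detected it, -3.97, -3.90, and -4.44 at 3 DPI, -3.90, -3.17, and -3.18 at 14 DPI, and -2.95, -3.17, and -3.17 at 42 DPI. Every array of 42 DPI lay above sham, and the change was 1.15 ± 0.28 (SE, adjusted p = 0.0147), a 2.21-fold rise. This fold rests in part on sham values below background. The change turned to -1.38 with the software's total signal and to -0.86 with normexp correction. miR-411-5p, detected on all arrays, had 0.34 ± 0.25 (SE) and did not pass (adjusted p = 0.301).

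Both arms of miR-154 were called higher at 42 DPI. miR-154-3p was at -4.28, -3.84, and -3.53 in sham, where 1 array detected it, -3.60, -3.43, and -4.09 at 3 DPI, -3.71, -2.56, and -2.69 at 14 DPI, and -2.43, -2.72, and -2.64 at 42 DPI. The change at 42 DPI was 1.29 ± 0.32 (SE, adjusted p = 0.0164), a 2.44-fold rise. This fold rests in part on sham values below background, and with normexp correction the change turned to -0.64. miR-154-5p, detected on all 12 arrays, rose by 0.77 ± 0.24 (SE, adjusted p = 0.0389).

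The remaining members called at 42 DPI against sham were miR-541-5p (0.73 ± 0.23, SE, adjusted p = 0.0404) and miR-380-3p, which was below background on every sham array and at least 1.75-fold higher at 42 DPI (adjusted p = 0.0454). Of the 15 called higher, 5 were detected on no sham array, 5 on 1, and 5 on all 3. The latter were miR-127-3p, miR-136-5p, miR-434-3p, miR-376a-3p, and miR-154-5p. These 5 stayed higher with normexp correction and with every other setting run, while the other 10 turned lower than sham with normexp. The 26 tested members never called ranged from -1.47 to 1.14 at 42 DPI against sham.

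**Figure D2:**
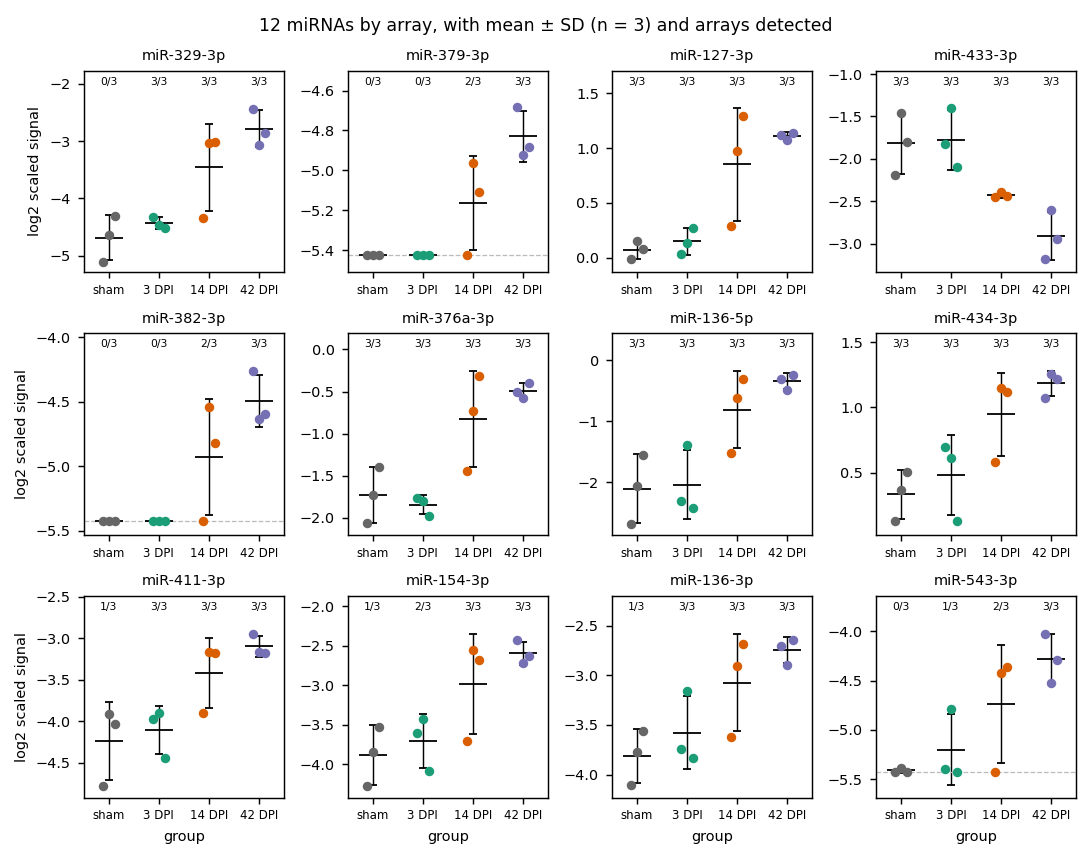
Log2 scaled signal of 12 Dlk1-Dio3 miRNAs on each array by group, where points are arrays, bars are mean ± SD (n = 3), the fractions give the arrays of a group that detected the miRNA, and the dashed line is the floor at -5.42. In 11 of the panels the 42 DPI points lie above all sham points, and miR-433-3p lies below. Replicate 1 is the first point of each group.

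At 14 DPI the same direction was seen on 2 of 3 arrays. No member was called against sham by limma, where 3.7% of all tested miRNAs were called. An unadjusted p under 0.05 by limma was found for 14 of the 43 members, 13 of them higher, beside 103 of the 486 tested. The lowest adjusted p was 0.0859, that of miR-127-3p. A mean above sham was found for 36 of 43 members, with a median of 0.40 beside -0.00 over all miRNAs. A total of 4 members lay wholly above sham (miR-127-3p, miR-136-5p, miR-411-3p, and miR-434-3p), beside 5.35% of all tested, and 2, miR-370-3p and miR-433-3p, wholly below. Taking for each array the median over members of the difference from the sham mean, 14 DPI replicate 1 stood at -0.13 and replicates 2 and 3 at 0.60 and 0.60, and the arrays of 42 DPI at 0.74, 0.62, and 0.65. Over the other miRNAs these medians were 0, -0.11, and 0 at 14 DPI and -0.27, -0.17, and -0.22 at 42 DPI. Before scaling, 14 DPI replicate 1 was the dimmest of its group (75th percentile of 588, beside 1173 and 1116). The part of this brightness was not tested. Without 14 DPI replicate 1, 18 members were called, 17 of them higher, while the calls over all miRNAs went from 18 to 167. Of the 25 members detected everywhere, 0 were called, their median was 0.22 beside -0.08 for the 230 miRNAs so detected, and 3 lay wholly above sham, beside 13 of the 230. The methods' t-test called 0 members and 0 of all miRNAs, with 3 members under an unadjusted p of 0.05.

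At 3 DPI no member was called against sham by limma, and 0% of all tested miRNAs were called. The median over members was 0.06 beside 0.00 over all, and 1 member had an unadjusted p under 0.05, beside 10 of the 486 tested. No member lay wholly above sham, beside 0.823% of all tested. The median over the 25 detected everywhere was 0.04, beside -0.02 for the 230. The lone member was miR-770-3p, of the hairpin within Meg3 at the upstream end. It was at -2.82, -3.44, and -4.07 in sham, where 1 array detected it, -3.07, -1.99, and -1.19 at 3 DPI, -2.71, -2.96, and -3.03 at 14 DPI, and -3.28, -3.18, and -3.45 at 42 DPI. The 3 DPI array on the slide of the sham arrays, replicate 1, lay within the sham range, while the other two lay above it. The difference of 1.36 ± 0.45 (SE) had an adjusted p of 1. For miR-127-3p the 95% interval of the difference at 3 DPI ran from -0.40 to 0.56, and for miR-136-5p from -0.84 to 0.97.

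**Figure D3:**
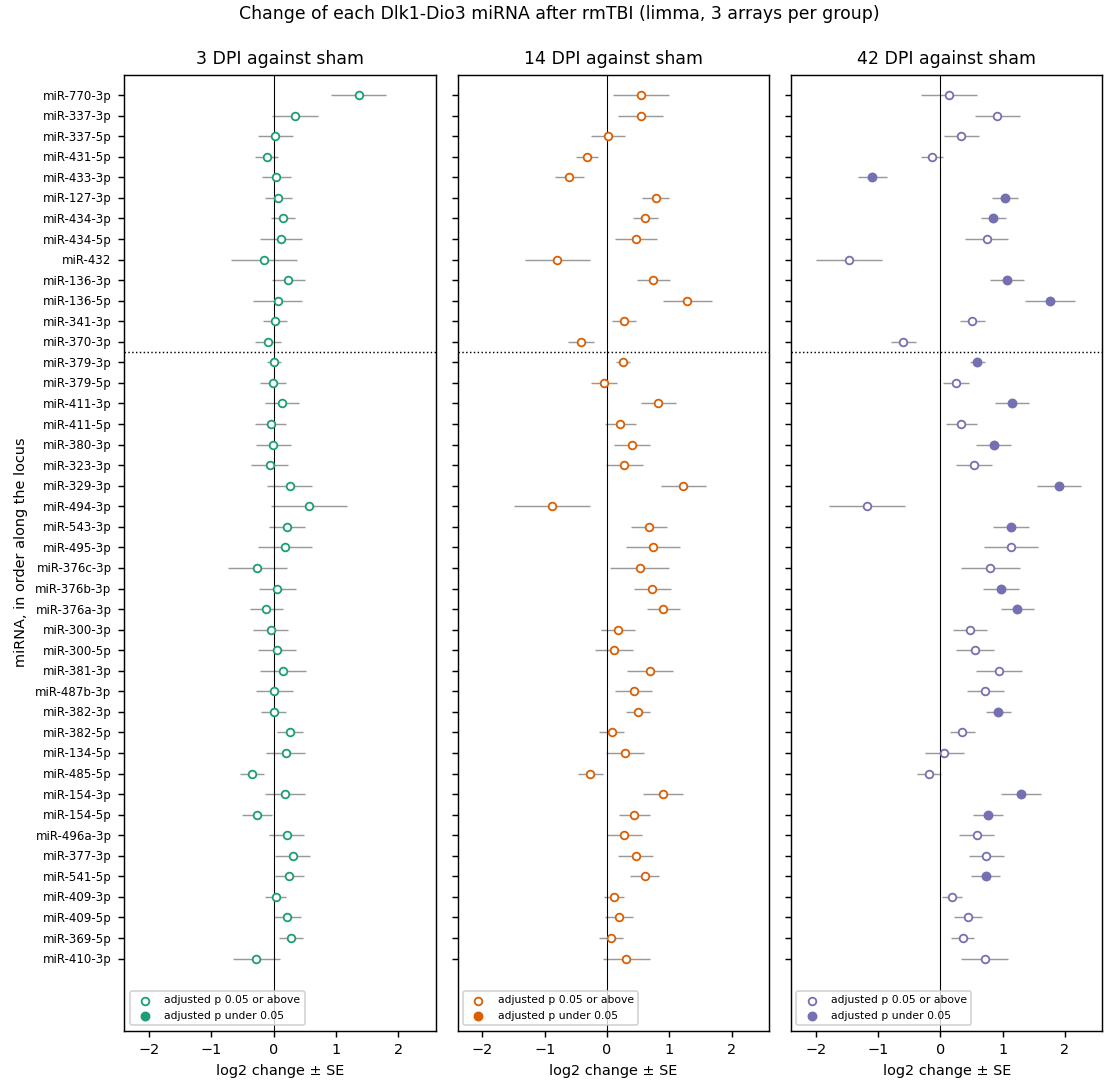
Log2 change against sham ± SE of each tested Dlk1-Dio3 miRNA at 3, 14, and 42 DPI, in order along the locus, with the dotted line between the upstream and downstream parts. For the 7 miRNAs below background on every sham array, the changes drawn rest on sham values below background. Filled points mark an adjusted p under 0.05: 0 at 3 DPI, 0 at 14 DPI, and 16 at 42 DPI.

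The 42 and 14 DPI arrays, all on slide 2, were then compared directly. No member was called by limma, and 0% of all tested miRNAs were called. An unadjusted p under 0.05 by limma was found for 1 member, miR-379-3p, beside 55 of the 486 tested. The mean was higher at 42 DPI for 37 of 43, with a median of 0.28 beside -0.12 over all miRNAs, and the same miRNA was the 1 member wholly above 14 DPI, beside 2.06% of all tested. Over the 25 detected everywhere the median was 0.28, beside 0.03 for the 230. Without 14 DPI replicate 1 the median over the 43 was 0.01. For miR-329-3p the difference was 0.68 ± 0.36 (SE, adjusted p = 0.406).

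Between 42 and 3 DPI, 14 members were called higher and 2 lower, where 41.6% of all tested miRNAs were called, 14.2% higher and 27.4% lower. Of the 14 called higher, 9 were members that some arrays did not detect. Among the 25 members detected everywhere, 5 (20.0%) were called higher and 2 lower, beside 15.7% and 33.5% of the 230. The 3 DPI arrays are not the controls of the comparison above, but the 42 DPI arrays serve in both. Members called against both sham and 3 DPI numbered 15, and miR-541-5p was called against sham alone. miR-494-3p, named here after its values were seen, was called against 3 DPI alone. It was at 5.52, 5.10, and 4.24 in sham, 5.06, 5.33, and 6.18 at 3 DPI, 5.47, 3.22, and 3.52 at 14 DPI, and 3.36, 4.27, and 3.69 at 42 DPI. Its lowest sham array lay just under its highest array of 42 DPI, so these groups overlapped, and 42 DPI lay wholly below 3 DPI, with a change of -1.75 ± 0.61 (SE, adjusted p = 0.0461). Again 14 DPI replicate 1 stood with the earlier groups. The count of 16 fell to 0 without 42 DPI replicate 1 or replicate 3, to 5 without 42 DPI replicate 2, and to 6 without 3 DPI replicate 3, while the calls over all miRNAs fell from 202 to 0, 0, 46, and 54. Within slide 2, with 2 arrays of 3 DPI, 4 members were called: miR-154-5p at 1.19, miR-376a-3p at 1.40, miR-433-3p at -1.16, and miR-770-3p at -1.71. Over all miRNAs 57 were called there. With slide as a block 12 members were called, 10 of them higher, among 114 calls over all miRNAs. Normexp correction gave 30 calls, 6 of them higher, and the software's total signal 8, 4 of them higher.

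Among the members, both arms of 9 hairpins were tested, and in these 9 the arms had the same sign at 42 DPI against sham. For 4 more hairpins the second tested arm was not a member: the arms of miR-376a and miR-376b had the same sign, those of miR-433 opposite signs, and miR-431-3p lay at the floor. Of the 9, both arms were called for 2 (miR-136 and miR-154), the 3p arm alone for 4 (miR-379, miR-382, miR-411, and miR-434), the 5p arm alone for 0, and neither for 3. For miR-379, miR-382, and miR-411 the called arm was the one that some arrays did not detect, and the other arm was detected on all 12.

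Outside the members, 53 further mature miRNAs of the locus were on the arrays, and 7 of them passed the filter. Of these, 5 had a higher mean at 42 DPI than sham, with a median of 0.56. Only 1 of the 7 was called, where 35.8% of all tested miRNAs were called. This was miR-666-3p (higher, adjusted p = 0.0256 by limma), which was detected on 6 arrays and on none of sham. Against 3 DPI, miR-376a-5p was called higher (0.80) and miR-3072-5p lower (-1.39), where 14.2% of all tested miRNAs were called higher and 27.4% lower.

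**Figure D4:**
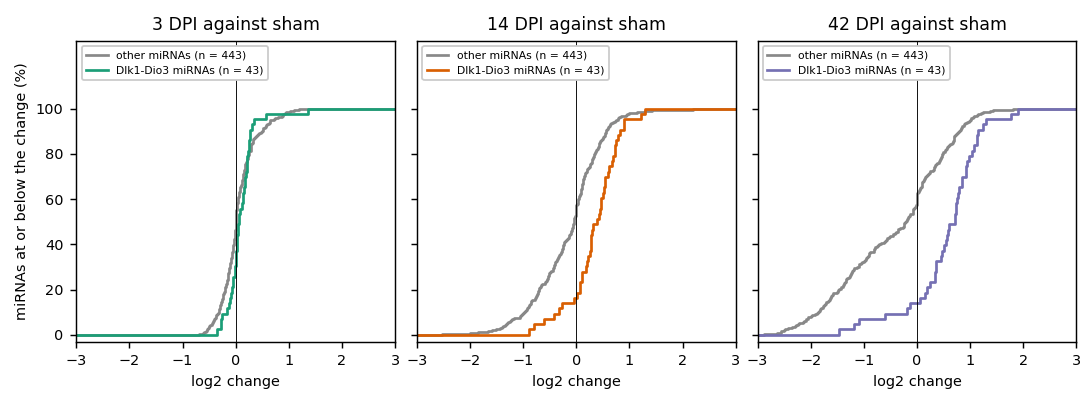
Cumulative share of miRNAs at or below each log2 change against sham, for the 43 tested Dlk1-Dio3 miRNAs and the 443 other tested miRNAs, at 3, 14, and 42 DPI. The curves run close together at 3 DPI (medians 0.06 and 0.00) and stand apart at 42 DPI (medians 0.71 and -0.22).

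The base composition of the members moved with these changes. The median share of G and C was 45.5% in the 40 tested members with sequence and 54.5% in the 378 other tested miRNAs. Across miRNAs, Spearman's rho between this share and the log2 change at 42 DPI against sham was -0.64 over the members and -0.51 over the others, as a description, since miRNAs on the same 12 arrays share their scaling and are not independent replicates. In each class of composition the median of the members was above that of the others. Below 40% G and C the median change was 0.93 for 11 members and 0.49 for 44 others. From 40% to under 50% it was 0.79 for 14 members and 0.23 for 99 others, and from 50% to under 60% it was 0.34 for 12 members and -0.31 for 101 others. At 60% or more it was 0.14 for 3 members and -1.02 for 134 others. These differences between members and others were not tested. At 3 DPI rho was -0.19 over the members and 0.09 over the others. miR-127-3p, with 59.1% G and C, was called higher, and miR-494-3p, with 45.5%, had one of the lowest values, so single members departed from the order. The part of base composition in the results was not tested.

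**Figure D5:**
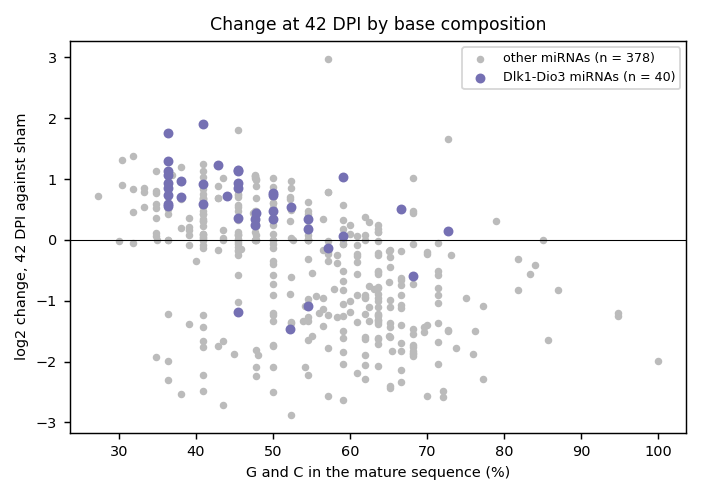
Log2 change at 42 DPI against sham by the share of G and C in the mature sequence, for the 40 tested Dlk1-Dio3 miRNAs with sequence and 378 other tested miRNAs, 1 point each. Points fall from left to right in both sets (rho -0.64 and -0.51), and most members lie in the upper part of the cloud.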

How the data were processed

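The authors deposited 1 scanner file per array (Agilent Feature Extraction 10.7.1.1) with a background-corrected intensity per spot. They also deposited a table of log2 values whose scaling and centering are not stated. Its columns all share the same highest value, 15.5, and the same lowest value, -3.32, which is also each column's median. Control and outlier spots were left out, spots of a probe averaged, and probes of a miRNA summed. To scale the arrays, the 75th percentile of the 230 miRNAs that every array detected was taken as the unit. Values were floored at log2 -5.42 (the median over arrays of the lowest detected signal), and fitted with limma 3.58.1 in R 4.3.3 over all 12 arrays without covariates (two-sided), by scripts tested on simulated data. Other steps ran in Python 3.11.15. The members and lists were chosen with earlier results of these data known. The miRNAs given on every array were the 12 with the smallest adjusted p at 42 DPI against sham among members called in any of 5 comparisons, and miR-770-3p in any case. miR-494-3p was added after its values were seen. Same-numbered arrays moved together between sham and 14 DPI (correlations of deviations of 0.84, 0.44, and 0.74), a pairing that comes from the data alone, and those of the other comparisons did not. Alternatives covered background correction, scaling, floor, filter, slide, replicate block, single arrays, the methods' t-test, and the deposited table. The number of arrays limits the precision.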

Additional observations from a re-analysis of the deposited data

Results flagged for a closer look

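The change of 16 members differed between 42 and 3 DPI by the limma test of the difference between these groups (n = 3 arrays each). That is how they come to be named here. They are 37.2% of the 43 tested members, beside 41.6% of all tested miRNAs called in this comparison. Without 42 DPI replicate 1 or replicate 3, 0 members and 0 of all miRNAs were called. The difference, 42 minus 3 DPI on the log2 scale, was 0.96 for miR-127-3p, 1.70 for miR-136-5p, 0.83 for miR-136-3p, and 0.70 for miR-434-3p. It was 1.03 for miR-154-5p, 1.11 for miR-154-3p, 1.65 for miR-329-3p, 1.35 for miR-376a-3p, and 0.91 for miR-376b-3p. It was 0.59 for miR-379-3p, 0.86 for miR-380-3p, 0.93 for miR-382-3p, 1.01 for miR-411-3p, and 0.92 for miR-543-3p. On the arrays of 3 DPI, miR-379-3p and miR-382-3p were not above background on any and lay at the floor, so that their differences depend on it, and the bounds are at least 1.19-fold and at least 1.51-fold higher. miR-380-3p and miR-543-3p were detected on 1 of the 3 arrays of 3 DPI, and their differences also rest on values below background. The difference was negative for miR-433-3p (-1.13) and miR-494-3p (-1.75). Groups of 3 arrays were not tested for outlying arrays.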

How the results depend on the processing

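Over single arrays left out, the count of members called ran from 0 to 0 at 3 DPI, from 0 to 18 at 14 DPI, and from 6 to 29 at 42 DPI against sham, from 0 to 0 at 42 against 14 DPI, and from 0 to 21 at 42 against 3 DPI. Calls over all miRNAs ran from 0 to 1, 1 to 167, 77 to 254, 0 to 1, and 0 to 270 in the same order. The highest counts came without 14 DPI replicate 1 and the lowest at 42 DPI against sham without sham replicate 1. The median log2 change over members ran from -0.05 to 0.20, 0.18 to 0.55, 0.44 to 0.77, 0.01 to 0.44, and 0.47 to 0.67 in the same order. In the same runs 109 of the values of single members lost their call and 0 changed sign.

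The replicate number as a replicate block gave 0 calls at 14 DPI and 13 at 42 DPI against sham, and 13 at 42 against 3 DPI. Over all miRNAs it gave 4, 145, and 178. It changed no comparison's count of members by over 1.5 times. The exception was the block with only the groups compared, which gave 0 members and 0 of all miRNAs at 42 against 3 DPI. This combined setting was chosen after seeing the data.

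In what follows, calls over all miRNAs stand in brackets after the calls of members. At 3 DPI against sham, normexp gave 19 calls (178), the deposited log2 values 6 (95), and values without scaling a median of 0.80 (0.69 over all miRNAs). At 14 DPI, normexp gave 32 calls (377) and a median of -0.63, and no scaling 40 (348) and 1.99. The software's detection call gave 1 (36), and the deposited values 10 (143). At 42 DPI, normexp gave 37 calls, with most of the 486 tested miRNAs called as well, and a median of -0.76. The 75th percentile over all miRNAs gave 35 (244) and 1.48, and quantile normalization 26 (215) and 1.05. No scaling gave 43 (418) and 3.33, and no filter 3 (53) and 0.36. Doubling the floor gave 10 calls (113), miRNAs detected on all 12 arrays 8 (118), only the groups compared 31 (282), and slide as a block 0 (0). The deposited table had a median of 1.07. At 42 against 14 DPI, no scaling gave 30 calls (170) and a median of 1.38, the 75th percentile over all miRNAs a median of 0.77, and the deposited values 1 call (16). At 42 against 3 DPI, the software's total signal gave 8 calls, normexp 30 with a median of -0.38, the 75th percentile over all miRNAs 34 and 1.42, no scaling 39 and 2.55, doubling the floor 9, miRNAs detected on all 12 arrays 8, no filter 0, slide 2 alone 4, and the deposited values 29 with a median of 1.33, and quantile normalization a median of 1.08. The software's detection call gave means of 40.7, 45, and 49.7 members per array at 3, 14, and 42 DPI. Scaling moved the median of all miRNAs at 42 DPI against sham to 0.54 with the 75th percentile over all miRNAs, 0.21 with quantiles, 2.02 with none, and -0.86 with normexp.

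Signs turned under 3 settings. With normexp at 42 DPI against sham these were miR-329-3p (-0.67), miR-379-3p (-1.30), miR-382-3p (-0.75), miR-411-3p (-0.86), miR-154-3p (-0.64), miR-136-3p (-0.76), miR-543-3p (-0.76), miR-376b-3p (-0.88), miR-541-5p (-0.87), and miR-380-3p (-0.90). Against 3 DPI they were miR-329-3p (-0.22), miR-379-3p (-0.75), miR-382-3p (-0.22), miR-411-3p (-0.41), miR-154-3p (-0.25), miR-136-3p (-0.40), miR-543-3p (-0.27), miR-376b-3p (-0.44), and miR-380-3p (-0.47), and at 3 DPI against sham miR-770-3p (-0.11). With total signal, miR-411-3p (-1.38), miR-136-3p (-2.64), miR-376b-3p (-0.0581), and miR-541-5p (-0.31) turned against sham, and miR-329-3p (-0.13), miR-382-3p (-0.0895), and miR-411-3p (-1.57) against 3 DPI. Without scaling, miR-433-3p rose to 1.73 against sham and 0.89 against 3 DPI, and miR-494-3p to 0.27 against 3 DPI. The cause was not tested. miR-127-3p, miR-136-5p, miR-434-3p, miR-376a-3p, and miR-154-5p stayed higher at 42 DPI against sham under every alternative run. For members below background on every sham array, the fitted changes rest on values below background. A bound at 42 DPI against sham could be given only for miR-329-3p and miR-380-3p. The dim sham arrays limit what could be detected there.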
